A study of Rattus norvegicus with 16 samples.

Results

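The antioxidant enzymes Sod1, Sod2, Cat and Hmox1 were followed in the kidneys of male Wistar rat pups after the loss of one kidney early in life. They are the 4 genes with the identifiers ENSRNOG00000002115 (Sod1), ENSRNOG00000019048 (Sod2), ENSRNOG00000008364 (Cat) and ENSRNOG00000014117 (Hmox1), chosen by identifier out of 26689 genes. All 4 were among the 14845 genes with a mean value of at least 3 that entered the tests. RNA sequencing of total kidney RNA gave 4 groups of 4 libraries each. UNX day 1 pups had the left kidney removed (uninephrectomy, UNX) on day 1 of life and sham day 1 pups had a sham operation on the same day, while UNX day 14 and sham day 14 pups were operated on day 14. In every group the tissue was taken 3 days after surgery, and strain and sex were the same. The labels do not give litters, or say whether a library came from 1 pup or from several. Kidney cell type markers were not analysed here, because gene names could not be paired with the other identifiers. Expression is given as regularised-log (rlog) values, a log2 scale on which a difference of 1 is a doubling.

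Of these enzymes, the dismutases and catalase act in sequence on reactive oxygen. Superoxide dismutases convert superoxide to hydrogen peroxide, Sod1 with copper and zinc mainly in the cytosol and Sod2 with manganese in the mitochondrial matrix. Catalase, encoded by Cat, breaks hydrogen peroxide down to water and oxygen in peroxisomes, which are abundant in proximal tubule cells of the kidney. Hmox1 encodes heme oxygenase 1, the inducible enzyme that opens heme to biliverdin, carbon monoxide and iron, and it is known for its induction by heme and oxidative stress through the transcription factor Nrf2.

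The bases before the transcription start are shown for Sod1, Sod2 and Cat. RefSeq promoters of the rat build GRCr8 were matched by symbol for these 3 of the 4 genes. Hmox1 had no entry among them, so its motifs were not examined. Each is written 5′ to 3′ on the strand of the gene, and capitals mark matches, on either strand, to the antioxidant response element core TGACNNNGC, the GC box GGGCGG, the CCAAT box CCAAT or the TATA box TATAAA.
Sod1: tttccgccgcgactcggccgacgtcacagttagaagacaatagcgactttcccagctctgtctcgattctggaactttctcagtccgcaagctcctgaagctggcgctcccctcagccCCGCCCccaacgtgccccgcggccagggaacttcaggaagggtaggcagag
Sod2: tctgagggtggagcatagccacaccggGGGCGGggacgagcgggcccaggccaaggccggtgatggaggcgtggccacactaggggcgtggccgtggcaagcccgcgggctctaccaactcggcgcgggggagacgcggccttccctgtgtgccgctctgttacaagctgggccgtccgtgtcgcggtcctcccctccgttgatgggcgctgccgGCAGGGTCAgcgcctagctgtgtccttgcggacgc
Cat: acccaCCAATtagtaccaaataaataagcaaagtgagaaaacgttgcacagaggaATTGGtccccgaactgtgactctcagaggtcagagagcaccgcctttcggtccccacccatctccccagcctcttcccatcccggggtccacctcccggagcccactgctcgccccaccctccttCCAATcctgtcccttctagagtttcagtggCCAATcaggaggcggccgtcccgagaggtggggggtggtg
The Sod2 window, chr1:50050169-50050418 on the minus strand, and the Cat window, chr3:110329527-110329776 on the minus strand, hold the 250 bases before the start. Of the Sod1 window, chr11:42942573-42942741 on the plus strand, the 169 bases farthest from the start are printed. The 81 bases next to the Sod1 start are not printed, because they lie inside the annotated interval of the gene. In them a TATA box lay 28 to 23 bases and a CCAAT match 68 to 64 bases before the start used here. The antioxidant response element core, the sequence to which Nrf2 binds with its Maf partners, was matched in Sod2 alone among these 3, 35 to 27 bases before the start, and 10.1% of 33469 RefSeq promoters hold it in the same 250 bases. Cat held 4 CCAAT matches. At least 1 stands in 34.0% of promoters, and the share with 4 or more was not counted. The GC box stood in Sod1 and Sod2 and stands in 30.5% of promoters, and the TATA box stood in Sod1 and stands in 12.9%. None of the 4 motifs was matched in all 3 windows.

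Library facts that touch the members are given first. Sham day 1 library 3 and sham day 14 library 4 stood apart from the other 14 on the second principal component of the tested genes, at −14.5 and −12.9 against −2.58 to 5.95. Of 5051 near-silent genes, 20.2% were highest in UNX day 14 library 1 and 47.9% in UNX day 14 library 3, against at most 2.99% in any other library. Read totals were not used here, so absolute depth is unknown. An order of depth read from the values of 151 genes placed the sham day 1 libraries at ranks 7, 13, 15 and 16, where 16 is the shallowest, and the UNX day 1 libraries at ranks 2, 5, 6 and 8. The part of these features in the results was not tested.

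All 4 genes differed between the surgery days, and none was called between UNX and sham kidneys. From day 1 to day 14 surgery Sod1, Sod2 and Cat rose and Hmox1 fell, in sham and in UNX kidneys. In sham kidneys 4 of 4 members were called, 3 higher and 1 lower, where 45.1% of all tested genes were called, 22.6% higher and 22.5% lower (limma, Benjamini-Hochberg adjusted p under 0.05). In UNX kidneys 4 of 4 members were called with the same directions, where 45.9% of all tested genes were called, 23.1% higher and 22.9% lower. These comparisons share no library. A call between the days was thus common among all genes. By size, in sham kidneys, the difference of Sod1 was larger than that of 95.1% of tested genes and that of Sod2 larger than 84.1%. That of Cat was larger than 98.0% and that of Hmox1 than 99.9%. Ranks by size, here and below, were not matched for expression level, and rlog values understate changes of weakly expressed genes. A batch that followed the surgery day cannot be told apart from age, and in whole kidney a change in the share of a cell type cannot be told apart from a change of RNA within its cells.

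**Figure D1:**
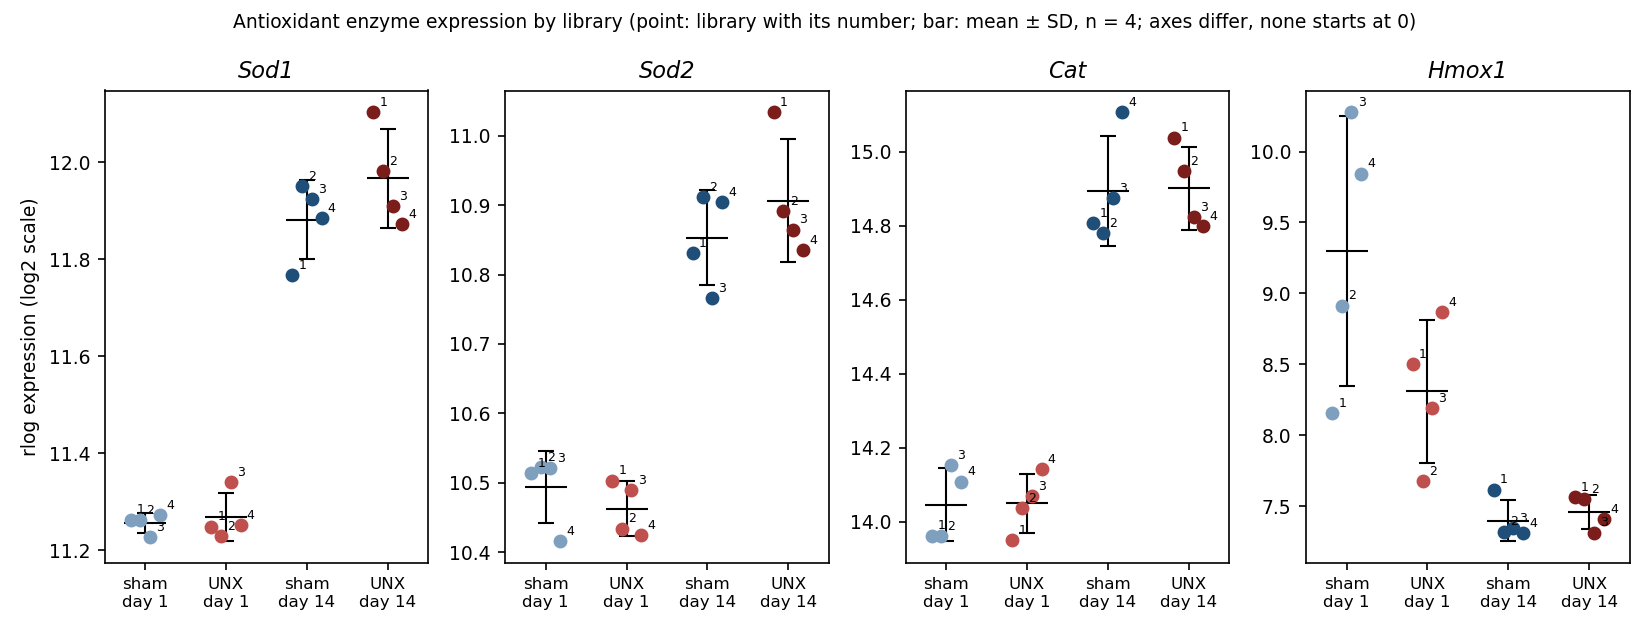
The plot of expression by library shows rlog values (log2 scale) of Sod1, Sod2, Cat and Hmox1 in the 4 groups, 1 point per library with its number, and black bars for the mean ± SD (n = 4). For Sod1, Sod2 and Cat every day 14 point lies above every day 1 point, and for Hmox1 every day 14 point lies below, with the widest scatter in sham day 1, from 8.16 to 10.28.

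Sod1, the cytosolic dismutase, stood at 11.26, 11.26, 11.23 and 11.27 in sham day 1 libraries 1 to 4 and at 11.77, 11.95, 11.92 and 11.88 in sham day 14 libraries 1 to 4. In UNX kidneys it stood at 11.25, 11.23, 11.34 and 11.25 after day 1 surgery and at 12.10, 11.98, 11.91 and 11.87 after day 14 surgery. All 8 day 14 values lay above all 8 day 1 values. The share of tested genes separated in this way over both kinds of kidney was not counted, here or for the other members. Within sham kidneys 36.7% of tested genes had days that did not overlap, and within UNX kidneys 45.7%. At each day the UNX values of Sod1 overlapped the sham values. In sham kidneys the later day exceeded the earlier one by 0.62 (log2, SE 0.048; 95% interval 0.52 to 0.73), a level 1.54-fold higher (limma adjusted p = 8.87e-09). In UNX kidneys it was 0.70 higher (95% interval 0.60 to 0.80), or 1.62-fold (limma adjusted p = 1.48e-09). The 4 sham day 1 values were close together, with an SD of 0.020 against a median of 0.088 over all tested genes in that group, and 1.39% of tested genes had a smaller one.

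Sod2, the mitochondrial dismutase, showed the smallest rise of the 3. It stood at 10.51, 10.52, 10.52 and 10.42 in the sham day 1 libraries and at 10.83, 10.91, 10.77 and 10.90 in the sham day 14 libraries. The UNX values were 10.50, 10.43, 10.49 and 10.42 after day 1 surgery and 11.03, 10.89, 10.87 and 10.84 after day 14 surgery. The days did not overlap in either kind of kidney, and UNX day 14 library 1, at 11.03, was the highest of all 16. The difference between the days was 0.36 in sham kidneys (SE 0.047, 95% interval 0.26 to 0.46), a level 1.28-fold higher (limma adjusted p = 4.72e-06). It was 0.44 in UNX kidneys (95% interval 0.35 to 0.54), or 1.36-fold (limma adjusted p = 3.19e-07). A minimum difference of 0.5 would leave Sod2 out and keep the other 3 genes, in both kinds of kidney.

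Cat, the peroxisomal enzyme that removes hydrogen peroxide, rose most. Its values were 13.96, 13.96, 14.15 and 14.11 in the sham day 1 libraries and 14.81, 14.78, 14.88 and 15.11 in the sham day 14 libraries. In UNX kidneys they were 13.95, 14.04, 14.07 and 14.14 after day 1 surgery and 15.04, 14.95, 14.82 and 14.80 after day 14 surgery. The days were separated by a gap of 0.63 on the log2 scale, from 14.15 to 14.78, and within each day the UNX and sham values were interleaved. The rise was 0.85 in sham kidneys (SE 0.072, 95% interval 0.70 to 1.00), or 1.80-fold (limma adjusted p = 2.58e-08), and 0.85 in UNX kidneys (95% interval 0.70 to 1.00), or 1.81-fold (limma adjusted p = 1.70e-08). The highest Cat value of each sham group lay in the library that stood apart on the second principal component, sham day 1 library 3 and sham day 14 library 4. Without those libraries the sham difference was 0.81 (limma adjusted p = 2.27e-08).

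Hmox1 went the other way and was the member that varied most. Its values were 8.16, 8.92, 10.28 and 9.84 in sham day 1 libraries 1 to 4 and 8.50, 7.68, 8.19 and 8.87 in UNX day 1 libraries 1 to 4. After day 14 surgery they were 7.62, 7.32, 7.35 and 7.31 in sham kidneys and 7.57, 7.55, 7.32 and 7.41 in UNX kidneys. All 8 day 14 values lay below all 8 day 1 values, by a margin of only 0.06 between UNX day 1 library 2 and sham day 14 library 1. In sham kidneys the difference of the later from the earlier day was −1.90 (log2, SE 0.31, 95% interval −2.55 to −1.25), a level 3.73-fold lower (limma adjusted p = 6.30e-05). The sham difference was −1.57 without sham day 1 library 3 and −2.28 without sham day 1 library 1. Without both libraries that stood apart on the second component it was −1.54 (limma adjusted p = 0.000385).

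In UNX kidneys the fall of Hmox1 between the days was −0.85 (95% interval −1.50 to −0.20), or 1.80-fold (limma adjusted p = 0.0313), and this call was close to the threshold. Over the 28 alternatives the limma adjusted p ran from 0.00108 to 0.119, and the 1 spread of the fit includes the sham day 1 libraries (SD 0.95). The call was lost without UNX day 1 library 1 (adjusted p = 0.0754) or 4 (0.111). It was also lost without UNX day 14 library 3 (0.0686) or 4 (0.0609), and without UNX day 14 libraries 1 and 3 together (0.119). The 4 UNX day 14 values still lay below the 4 UNX day 1 values, as they did for 22.8% of tested genes. For each of the 4 members in both kinds of kidney the days did not overlap, and the exact permutation test of 4 against 4 gave p = 0.029, the smallest it allows (two-sided). This p is unadjusted, and none of the 16 permutation comparisons of the members stayed under 0.05 after Benjamini-Hochberg adjustment over them. Over all tested genes the days were separated in this way in 36.7% in sham kidneys (18.3% higher and 18.4% lower) and in 45.7% in UNX kidneys (22.9% higher and 22.8% lower).

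**Figure D2:**
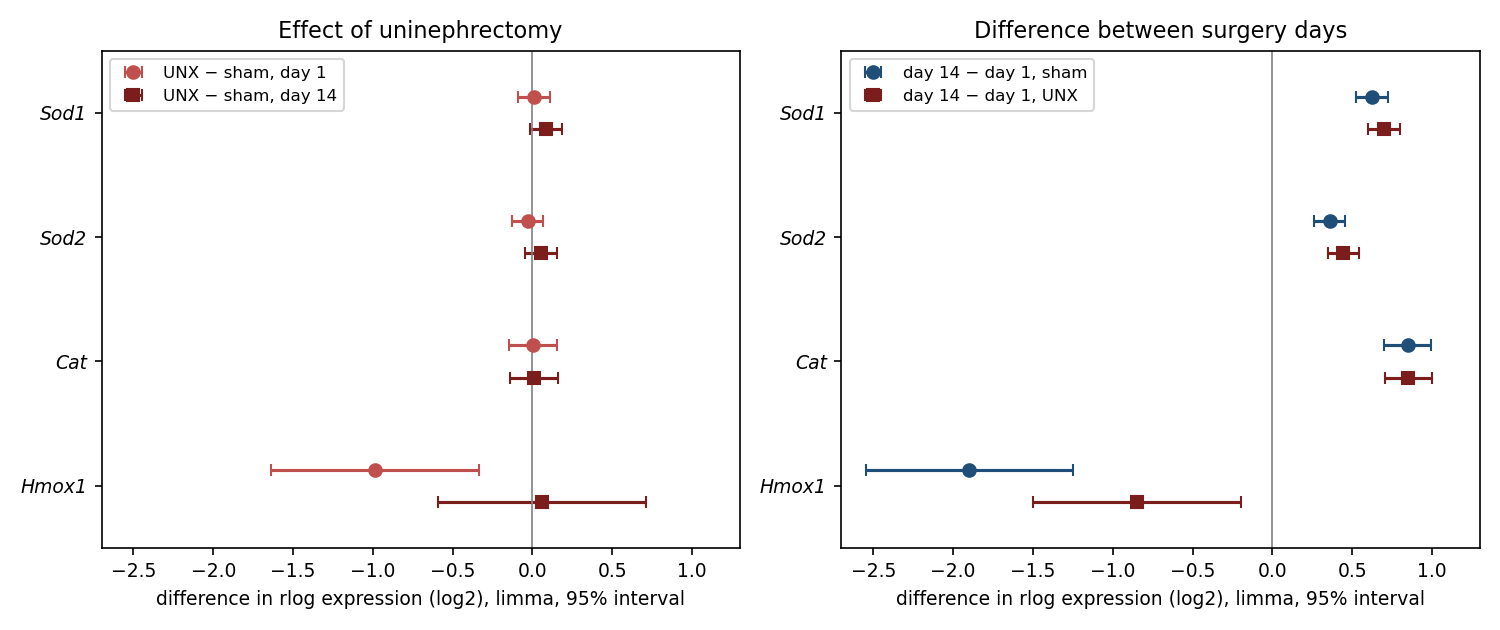
The plot of differences shows, for each gene, the difference in rlog expression (log2, x axis) with its 95% limma interval, on the left UNX minus sham at each surgery day and on the right day 14 minus day 1 in sham and UNX kidneys. The intervals of Sod1, Sod2 and Cat include 0 on the left and lie above it on the right. Hmox1 has the widest intervals, and its day 1 value of −0.99 did not pass the adjusted threshold although its unadjusted interval leaves out 0.

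The sizes of the 3 rises can be set side by side as the difference between a pair of genes within the same library, in which any scaling of the library cancels. The pairs were formed after the rises had been seen, so these values are a description, with no test. Sod1 minus Sod2 went from 0.76 ± 0.066 after day 1 surgery to 1.03 ± 0.096 after day 14 surgery in sham kidneys (SD, n = 4 each), a gain of 0.26, and the gain in UNX kidneys was 0.25. Cat gained 0.49 on Sod2 in sham and 0.41 in UNX kidneys. In these 4 comparisons the values of the days did not overlap. How often other pairs of genes separate in this way was not counted. Against Sod1, Cat gained 0.15 in UNX kidneys, where the days did not overlap, and 0.22 in sham kidneys, where they did.

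**Figure D3:**
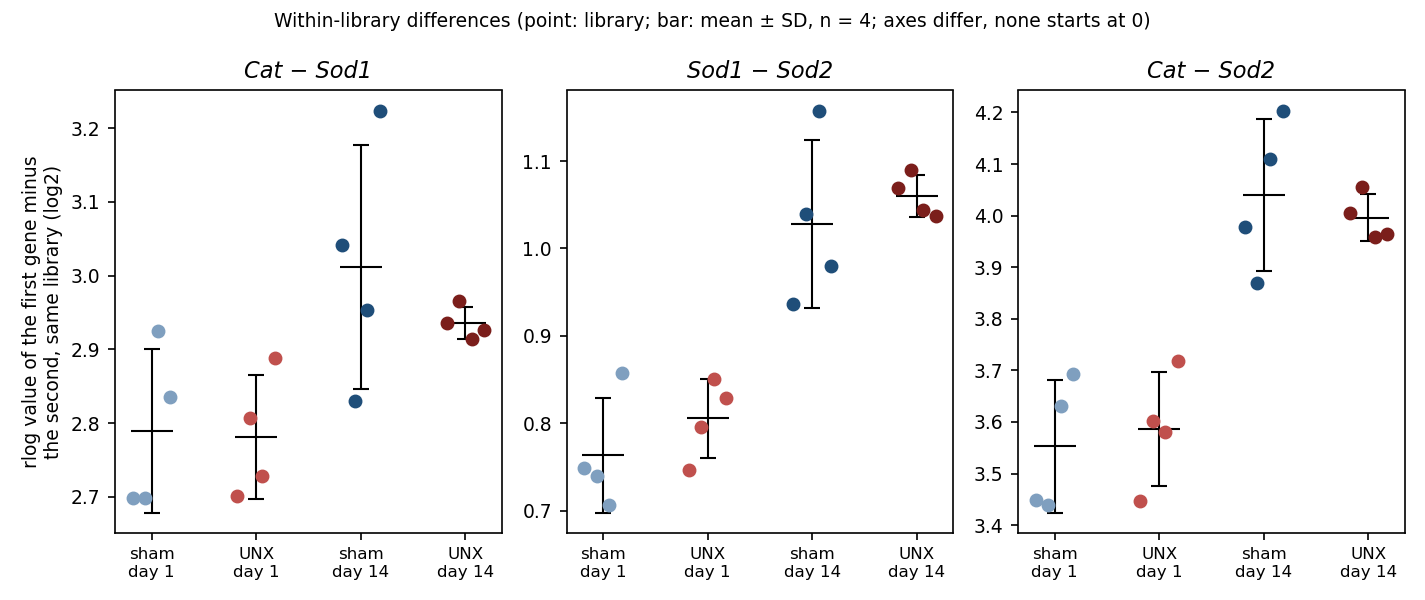
The plot of within-library differences shows the rlog value of one gene minus that of another in the same library (log2, y axis) by group, with 1 point per library and bars for the mean ± SD (n = 4). For Sod1 minus Sod2 and Cat minus Sod2 every day 14 point lies above every day 1 point, and for Cat minus Sod1 the sham groups overlap.

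Whether early nephron loss changed these enzymes was asked at each surgery day. After surgery on day 1, 0 of 4 members were called, where 0.00674% of all tested genes were (limma). At an unadjusted p under 0.05 there was 1 member, Hmox1, against 7.15% of tested genes, and the exact permutation test gave none. Sod1 differed by 0.01 (95% interval −0.09 to 0.11), Sod2 by −0.03 (−0.13 to 0.07) and Cat by 0.0034 (−0.15 to 0.15). The widest of these intervals, that of Cat, reaches 0.15 on the log2 scale in either direction. The comparison uses the same sham day 1 libraries as the sham comparison of the days.

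Hmox1 had the largest UNX difference of the members after day 1 surgery. Its mean was 8.31 ± 0.50 in UNX and 9.30 ± 0.95 in sham kidneys (SD, n = 4 each), a difference of −0.99 (95% interval −1.64 to −0.34), or 1.98-fold lower. The size exceeded that of 99.97% of tested genes, but the SD of the sham libraries was nearly as large, and Hmox1 did not pass (limma unadjusted p = 0.00498, adjusted p = 0.517; two-sided exact permutation p = 0.143). The limma interval and p rest on 1 spread for all groups. That spread takes in the smaller day 14 SDs, 0.15 in sham and 0.12 in UNX kidneys, so the interval is too narrow for the day 1 groups. Fitted on the day 1 groups alone, the unadjusted p was 0.0163 (limma). Of the UNX values 1 of 4 lay below all sham values, and sham libraries 2, 3 and 4 lay above all UNX values. The difference was −0.66 without sham day 1 library 3 and −1.37 without sham day 1 library 1, with adjusted p of 0.620 and 0.103. Sham day 1 library 3, the highest, was 15th in the order of depth, library 4, the second highest, was 7th, and the shallowest of all, library 2, stood at 8.92. On the second principal component libraries 3 and 4 stood at −14.5 and −2.58, and the other day 1 libraries at 0.34 to 3.19. The part of depth or of this component was not tested.

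After surgery on day 14, 0 of 4 members were called, where 0.0539% of all tested genes were, 0.0337% higher and 0.0202% lower (limma), and 0 members stood at an unadjusted p under 0.05, against 14.4% of tested genes, with a smallest exact permutation p of 0.286. Sod1 was 0.09 higher in UNX kidneys (95% interval −0.02 to 0.19; limma adjusted p = 0.447), with 2 of 4 UNX values above all sham values. Sod2 differed by 0.05 (−0.04 to 0.15), Cat by 0.0089 (−0.14 to 0.16) and Hmox1 by 0.06 (−0.59 to 0.71). The Hmox1 interval carries the wider day 1 spread, while its day 14 SDs were 0.12 in UNX and 0.15 in sham kidneys. Sod1, Sod2 and Cat were each highest, among the UNX day 14 libraries, in library 1, one of the pair with extra signal in near-silent genes. Library 3, where more of those genes were highest (47.9% against 20.2%), stood below libraries 1 and 2 for all 3 members. Without that pair the Sod1 difference was 0.05, the Sod2 difference 0.01 and the Cat difference −0.02. Without library 1 alone these differences were 0.04, 0.01 and −0.04, and without library 3 alone 0.10, 0.07 and 0.04. The part of the near-silent signal was not tested. No member had UNX values clear of sham values at either day, where 4.51% of tested genes did on day 1 and 6.97% on day 14.

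Averaged over both days, 0 of 4 members were called, where 0.00674% of all tested genes were (limma), and 1, Hmox1, had an unadjusted p under 0.05, against 10.6% of tested genes. The averaged difference of Hmox1 was −0.46 (95% interval −0.92 to −0.0033; limma adjusted p = 0.469). It ranged from −0.65 to −0.30 when 1 library was left out, and was −0.30 without sham day 1 library 3, with an unadjusted p of 0.127 (limma). The test of whether the UNX effect differed between the days called 0 of 4 members and 0% of all tested genes (limma), and 1 member, Hmox1, was at an unadjusted p under 0.05, against 10.7% of tested genes. For Hmox1 the effect was 1.05 higher on day 14 than on day 1 (95% interval 0.13 to 1.97; limma adjusted p = 0.415), so a difference between the days was not established. Leaving out 1 library moved this value between 0.72, without sham day 1 library 3, and 1.43, without sham day 1 library 1. For Sod1, Sod2 and Cat it was 0.07, 0.08 and 0.0054, and each 95% interval included 0.

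The spread of Hmox1 between libraries was wide after day 1 surgery and closer to that of other genes after day 14 surgery. In sham day 1 kidneys the highest and lowest values differed 4.35-fold, with an SD of 0.95, and 2 of 14845 tested genes had a larger SD in that group. In UNX day 1 kidneys they differed 2.28-fold, with an SD of 0.50, and 18 genes had a larger SD. After day 14 surgery the SD was 0.15 in sham and 0.12 in UNX kidneys, and 2704 and 3054 genes had a larger one. The limma fit uses 1 spread for all groups and its intervals for Hmox1 take no account of this difference. For UNX against sham the interval is thus too narrow for the day 1 spread and too wide for the day 14 spread. The other members stayed between 0.020 and 0.149 in every group, against medians over all tested genes of 0.067 to 0.088.

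**Figure D4:**
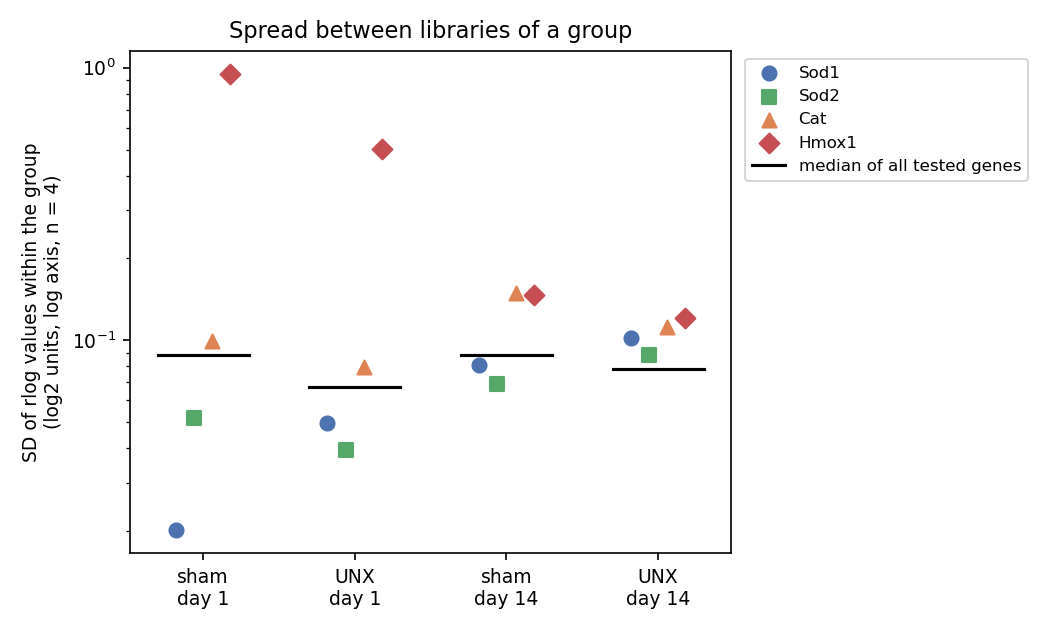
The plot of spread shows the SD of rlog values within each group (log2 units, log axis, n = 4), with 1 symbol per gene and a black line for the median over all tested genes. Hmox1 stands at 0.95 in sham day 1 and 0.50 in UNX day 1, and near the other members in the day 14 groups.

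Whether the members varied together from library to library was examined within each day over its 8 libraries, in 12 relations, and none passed (adjusted p at least 0.635 for Pearson r and 0.882 for Spearman rho). Sod1 and Sod2 after day 14 surgery gave r = 0.72 (two-sided exact permutation p = 0.053; rho 0.62, exact permutation p = 0.115), and r = 0.67 after each group's mean was removed. Cat and Hmox1 after day 1 surgery gave r = 0.58 (exact permutation p = 0.142; rho 0.48, exact permutation p = 0.243), and r = 0.74 after each group's mean was removed, so which pair stood highest changed with that choice. The values of r also changed when 2 of the 8 libraries were left out together. Without the 2 libraries farthest from the median of the first-named gene, r fell to 0.24 for Sod1 and Sod2 on day 14 and to 0.39 for Cat and Hmox1 on day 1. It went from −0.22 to 0.80 for Sod1 and Hmox1 on day 1, from 0.04 to 0.67 for Sod2 and Hmox1 on day 1, and from 0.27 to −0.51 for Sod2 and Hmox1 on day 14.

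The tested genes most like each member were sought by the Pearson r over the 16 libraries after each group's mean was removed. For Cat the highest r was 0.96, with ENSRNOG00000010128, and for Hmox1 it was 0.92, with ENSRNOG00000003882. For Sod1 and Sod2 the highest r was 0.88 and 0.90. Each of these is the highest value found among 14844 genes and was not tested. Within groups, ENSRNOG00000003882 followed Hmox1 over a far smaller range, from 10.69 in sham day 1 library 1 to 10.80 and 10.82 in sham day 1 libraries 3 and 4. It did not share the fall of Hmox1 between the days in sham kidneys, with 10.76 to 10.79 in sham day 14. No other member was among the genes most like a member: by this measure Sod2 stood 396th of 14844 genes for Sod1 (r = 0.56), and Cat stood 1594th for Hmox1 (r = 0.42).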

How the data were processed

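Total RNA of male Wistar rat kidneys was treated with DNase and made into libraries with the Ovation Universal kit, with depletion of unwanted sequences by rat-specific oligonucleotides, per the labels' protocols. The authors deposited regularised-log (rlog) values on a log2 scale, as the name of the deposited table and its values show. This transform corrects for library size and shrinks weakly expressed genes towards their mean, which understates their changes. Per the submitters' processing notes, the tools included DESeq2, featureCounts, STAR 2.4.0, BWA 0.7.14 and Subread 1.5.1, with no role stated. No source used here gives the genome build, annotation or strand setting, and reads shared with copies or overlapping genes cannot be set apart.

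Groups came from sample titles, and CO columns were read as sham libraries with that day and number. Of 26689 identifiers, 0 matched the reference table, so the names of the 4 members are those given with their identifiers, and the lists of pathway genes and cell type markers were not analysed here. The rule for naming genes took the 4 members, listed genes that passed, and the genes most like each member.

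Differences were tested with limma 3.58.1 (R 4.3.3), with 1 mean per group over 16 libraries (12 residual and 6.88 prior degrees of freedom), a mean-variance trend, and Benjamini-Hochberg adjustment over the 14845 genes with a mean value of at least 3, called at adjusted p under 0.05. It was tested on simulated data with 200 changed genes. Permutation tests were two-sided and exact, in Python 3.11.15 (pandas 2.3.3, scipy 1.17.1, numpy 2.4.6), and plots used matplotlib 3.10.9. The depth order rests on genes with a single high library, whose gap to the next value was more than 20 times the span of the rest. It gives no absolute depth, so no counting interval was computed. P-values reflect only the spread of these samples, which may be technical. Alternatives changed the filter, scaling, variance model, library weights, libraries fitted, block and threshold. The members and lists were chosen with earlier results of these data known.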

Additional observations from a re-analysis of the deposited data

Results flagged for a closer look

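The 16 groups of 4 values, 4 genes in 4 groups, were screened with Dixon's test for a library far from the others, and 2 passed, where chance flags about 1 in 20 groups. Sod2 stood at 10.4154 in sham day 1 library 4, below the other 3 sham day 1 libraries at 10.51 to 10.52. Hmox1 stood at 7.61805 in sham day 14 library 1, while the other 3 of that group stood between 7.31 and 7.35.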

How the results depend on the processing

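The 4 members kept their direction between the days in all 28 alternatives, in sham and in UNX kidneys, which the separated values make certain when libraries are left out. Sod1 and Cat kept their calls in all 28. Sod2 lost its calls when a difference of at least 0.5 was required. Hmox1 kept its call in sham kidneys and lost it in UNX kidneys in 7 of 28, among them no filter on low values (limma adjusted p = 0.0778) and robust variance (0.0891), over a range of adjusted p from 0.00108 to 0.119. No member was called for UNX at either day, on average or as a difference between the days in any alternative. Values near 0 changed sign when 1 library was left out. Sod1 on day 1 ran from −0.013 to 0.024, Cat on day 1 from −0.027 to 0.039, Cat on day 14 from −0.037 to 0.081, averaged Sod2 from −0.0099 to 0.023, averaged Cat from −0.017 to 0.042, and the Cat difference between the days from −0.040 to 0.077. Without UNX day 14 libraries 1 and 3 Cat was −0.020 on day 14, averaged Sod2 −0.010, averaged Cat −0.0083 and the Cat difference −0.023. That difference was −0.0026 with median centring. The cause was not tested. A replicate block for the library number changed no call of a member, with an adjusted p for Hmox1 of 0.598 on day 1 and 0.0332 between the days in UNX kidneys. The labels give no litters, so the numbers were not taken as pairs. Same-numbered UNX and sham libraries deviated with r from −0.23 to 0.12. Of 8 UNX libraries 3, all from day 1, had their highest r with the sham library of their own number. These values cannot decide whether the numbers mark pairs. Over all tested genes the calls ran from 0 to 9 for UNX on day 1 (1 in the fit reported), 0 to 90 on day 14 (8), 0 to 10 on average (1), 0 to 5 for the difference between the days (0), 1234 to 7757 between the sham groups (6696) and 1292 to 7849 between the UNX groups (6821). Depth limits in absolute terms are unknown.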
